A study of Arabidopsis thaliana with 8 samples.

Results

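The genes described here are 899 loci in 2 neighbouring stretches of chromosome 3 of Arabidopsis thaliana that read low in the strain ExTQ019. The first stretch runs from AT3G11680 to AT3G17810 and holds 664 of them, and the second runs from AT3G18560 to AT3G20830 and holds 235. They are 899 of the 25643 loci with a probe on the array, and were chosen by locus name alone once the limits of the stretches had been set from the values of ExTQ019. The 77 loci between the stretches, from AT3G17820 to AT3G18550, served as the inner comparison. Because the limits came from the contrast of ExTQ019 with the other strains, every value of that contrast below is a description. Where genes are counted as past a limma threshold in it, the count only sorts them by size and spread and tests nothing about the stretches or lists.

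Ex-TAQing rearranges a plant genome from within. The gene for a restriction enzyme, here MseI, is carried by the plant, the enzyme is activated by mild heat, and the chromosomes are cut at many sites and rejoined by the cell's own repair. Plants that come out of such a treatment can lose, gain or move chromosome parts. In a diploid plant, a gene present in a single copy is often transcribed to a lower level, but the relation differs from gene to gene. The arrays measured RNA, and the number of DNA copies of the 2 stretches was not measured, so what lowered the readings in them was not tested.

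All 8 samples were given as leaves of diploid strains of the same kind. Each strain was the progeny of a plant that carried the MseI gene and had been heated for 3 h at 33 °C. The strains were ExTQ019 and, as its comparison, ExTQ002, ExTQ013, ExTQ015, ExTQ003, ExTQ005, ExTQ016 and ExTQ018, with 1 array each. The progeny grew for 4 weeks on MS medium with 1% sucrose and 0.8% agar, in cycles of 16 h light and 8 h dark. No strain without the treatment was among the 8, and no strain had a second array. Strains are named by the sample titles, because the description texts give other numbers. The sources used here do not say how many plants made up a sample. The arrays lay on 2 slides of 4, each with its own scan, and ExTQ019 shared its slide with ExTQ005, ExTQ016 and ExTQ018.

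Between 61.3% and 67.7% of all probes were well above background on an array, with 65.3% in ExTQ019. A level is given below as log2 of the processed intensity relative to the 75th percentile of the array, so 0 marks that percentile. The 4 leaf markers (RBCS1A, LHB1B1, CAB1 and LHCA1) were well above background in every strain, with a log2 summed level of 8.37 in ExTQ019 and 8.49 to 8.98 in the others, and all 4 read lowest in ExTQ019. The 4 flower markers (AP1, AP3, AG and SEP3) were also present, with a log2 summed level of 1.39 in ExTQ019 and -2.23 to 3.08 in the others, the lowest in ExTQ002, where AP3 was at -8.08. ExTQ019 stood apart by its 3 markers of the salicylic acid response, PR1, BGL2 and PR5, which summed to 6.53 in ExTQ019 against -2.71 to 4.02 in the others and were each above all others. Its 3 markers of phosphate starvation, SPX3, SPX1 and PHT1;1, summed to -0.44 in ExTQ019 against 1.95 to 5.22 in the others and were each below all others. The 4 seed markers were not above background in ExTQ019.

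Of the 899 loci, 83 were below background on all 8 arrays and 816 could be tested. A further 93 were above background on too few arrays, which left 723 genes measured, 535 in the first stretch and 188 in the second. Measured here means well above background in 6 or 7 of the strains other than ExTQ019, a filter that does not look at ExTQ019. The shift of a gene is its log2 level in ExTQ019 minus the median of the 7 others, centred on the median of the 19576 genes so measured in the genome.

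Most genes of both stretches read lower in ExTQ019, and the medians of the 2 stretches were nearly the same. The median shift was -0.93 over both stretches, -0.92 in the first and -0.94 in the second, which is 0.527 and 0.521 of the level in the other strains for the first and the second. Single genes differed, with quartiles of -1.32 and -0.51. The shift was below 0 for 641 of 723 genes (88.7%), and 417 genes (57.7%, against 19.1% of all measured genes) lay between -1.5 and -0.5. Another 131 genes were below -1.5, 93 were between -0.5 and 0, and 82 were at or above 0, of which 18 reached 1 or more. In the loci between the stretches the median shift was 0.08, with 28 of 63 genes (44.4%) below 0, and in the 3084 other measured genes of chromosome 3 it was 0.07, with 44.8% below 0. With RNA of whole tissue, in which flower markers also read, fewer cells of a type and less RNA per cell cannot be told apart.

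**Figure D1:**
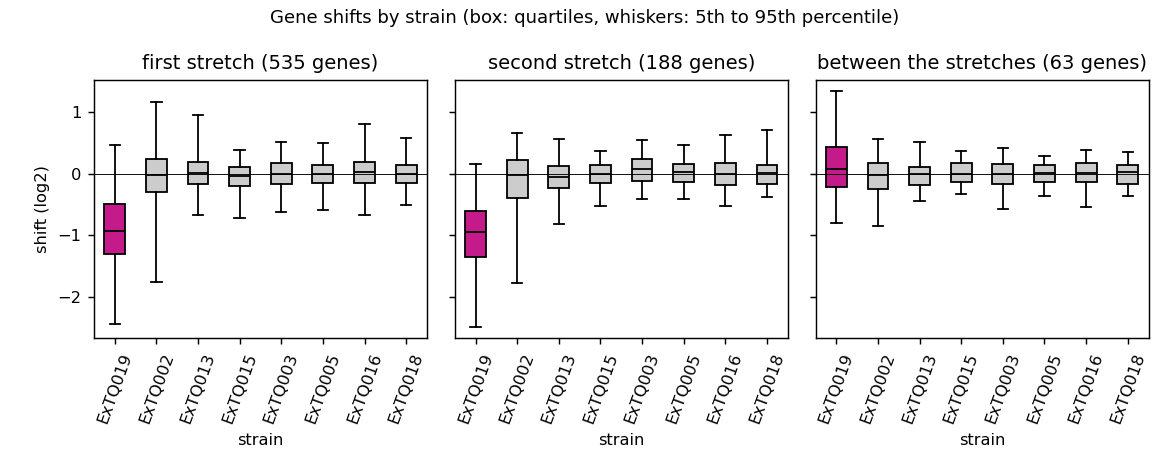
Boxes show the quartiles of gene shifts (log2) with the median as a line, and whiskers the 5th to the 95th percentile, for ExTQ019 and the 7 other strains in the first stretch, the second stretch and the loci between them. The medians of ExTQ019 are -0.92 and -0.94 in the stretches and 0.08 between them, while those of the other strains lie near 0.

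ExTQ019 was below all 7 others for 544 of the 723 measured genes (75.2%, against 29.3% of all measured genes in the genome). The counts were 402 of 535 (75.1%) in the first stretch and 142 of 188 (75.5%) in the second, against 13 of 63 (20.6%) between the stretches. ExTQ019 was above all others for 24 of 723 (3.32%, against 29.0% in the genome) and for 21 of 63 (33.3%) between the stretches. By limma, taking genes whose adjusted p was under 0.05 and whose log2 difference was 1 or more in size (the rule for "called" throughout), 249 of 816 tested genes were called lower in ExTQ019 (30.5%, against 6.3% of all 22381 tested genes). Only 7 were called higher (0.858%, against 4.4%), and between the stretches 3 were called lower and 5 higher of 72. Since the stretches were chosen on this contrast, these shares are given beside their background and are not read further. The count of genes called lower was 147 with normexp background correction, and the count called higher was 1 with it and 11 with the slide as a block, or 4 when ExTQ005 or ExTQ018 was left out.

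The lowering was spread along both stretches. Cut into 10 blocks of 53 or 54 measured genes, the first stretch had block medians from -0.77 (AT3G13490 to AT3G14070) to -1.05 (AT3G14710 to AT3G15290). The 4 blocks of 47 genes in the second stretch had medians from -0.83 to -1.0. The 2 blocks between the stretches, of 32 and 31 genes, were at 0.03 and 0.08. In these 16 blocks the medians of the 7 other strains stayed between -0.11 and 0.16.

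**Figure D2:**
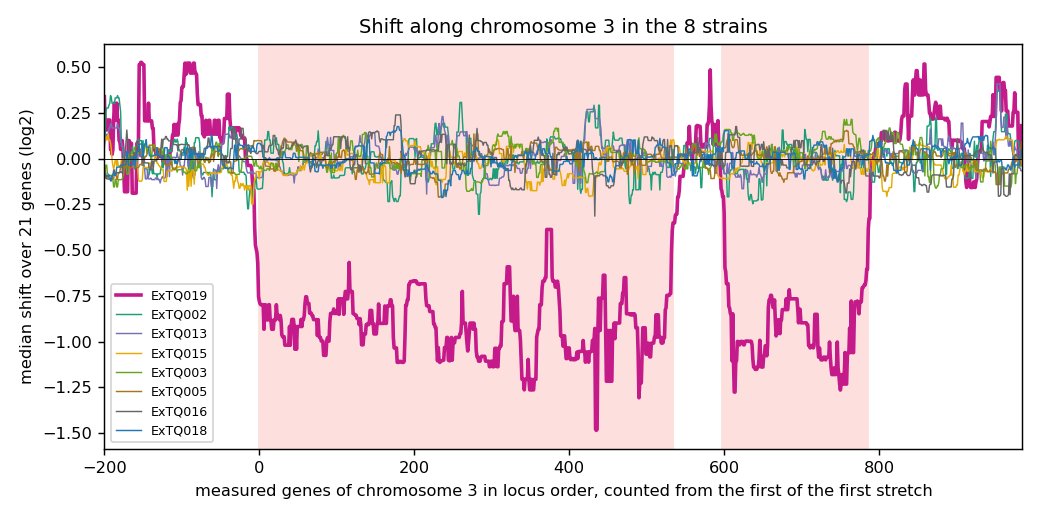
Running median of the shift over 21 measured genes (log2) against the order of measured genes on chromosome 3, counted from the first gene of the first stretch, with 1 line per strain and the 2 stretches shaded. The line of ExTQ019 lies near -0.9 in both shaded parts and returns to about 0 between them and outside, while the 7 other lines stay near 0 throughout.

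Probes that the array design names by a chromosome interval and not by a locus gave a reading outside the gene set. Of 1781 such probes on chromosome 3, 283 of 60 bases were measured. On the coordinates in the probe names, whose build the sources used here do not name, and with bounds chosen after the values were seen, 28 probes from 4 to 6 Mb had a median shift of -0.55 with 24 below 0. The 15 probes from 6.5 to 7 Mb had a median of -0.94 with 13 below 0. The 11 probes from 6 to 6.5 Mb lay at 0.05 and the 62 probes below 4 Mb at 0.25. Only 4 probes lay from 7 to 7.5 Mb, at 0.15 with 2 below 0. The 44 probes from 7.5 to 12 Mb lay at 0.11, and the 119 probes from 12 to 30 Mb at 0.0. Where a member had a further measured probe, 25 of 29 such probes were below 0 in ExTQ019, with a median of -0.73. Of the members described below, RR1 and NSP4 had further probes that differed from the brighter probe used here, with shifts of 0.08 against -1.35 and -0.24 against -1.96.

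The end of chromosome 2 and the distal part of chromosome 5, chosen in the same way, had median shifts of -0.94 over 177 genes and -0.87 over 1481 genes in ExTQ019. No test of their difference from the chromosome 3 stretches was made.

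The steps at the limits were sharpest at the first one. Of the 5 measured genes just inside the start of the first stretch, all were below 0, with a median of -1.90 and a range of -3.69 to -0.52. AT3G11690 was at 0.17 in ExTQ019 against 2.21 to 3.34 in the others, and FLA18, a fasciclin-like arabinogalactan protein, was at -1.45 against 0.19 to 0.95. The 5 genes just outside had a median of 0.13 and a range of -1.17 to 0.45, with DGD1, the galactolipid synthase of chloroplast membranes, at 1.74 in ExTQ019 against 1.22 to 1.75. At the other end of the first stretch the inner 5 genes were between -1.01 and -0.30 with a median of -0.51, and the outer 5 between -0.74 and 0.18 with a median of -0.18. The last 3 genes inside, PYD1, AT3G17800 and PAP17, had shifts of -0.51, -0.30 and -0.39, so the values change by little across this limit. PAP17 had 0.49 against the strains of the same slide alone, and PYD1 had -0.25.

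At the start of the second stretch the inner 5 genes had a median of -0.82 and ran from -3.01 in ENODL5 to 0.89 in NUC-L2, a nucleolin gene, while the outer 5 had a median of -0.17. ENODL5, well above background in the 7 other strains and not in ExTQ019, was at least 5.25-fold lower on the levels used here and was not called. Its shift was only -0.18 in the deposited series values and -0.53 with normexp background correction. At the end of the second stretch the inner 5 genes had a median of -0.88 with a range of -2.90 to 0.16, and the outer 5 a median of 0.03 with a range of -1.07 to 0.45. AT3G20790 was at 0.37 in ExTQ019 against 1.17 to 1.47 in the others, and UCNL, the last gene inside, at -2.03 against -2.04 to -1.20. AT3G20870, just outside, was at 1.60 in ExTQ019 against 1.11 to 1.27. Inside this limit AT3G20800 was the exception, at 0.80 in ExTQ019 against 0.43 to 0.91 in the others.

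Members that varied least among the 7 other strains were the most alike in ExTQ019, as were genes outside the stretches. In the third of members with the smallest spread (SD of 0.03 to 0.17), the median shift was -0.89 with quartiles of -1.14 and -0.67, and 96.7% were below 0 and 79.3% between -1.5 and -0.5. In the third with the largest spread (SD of 0.31 to 3.70), the median was -1.08, the quartiles were -1.82 and -0.21, and 32.4% lay between -1.5 and -0.5. In the same spread ranges outside the stretches the medians were 0.10 and 0.01. The quartiles there were -0.15 and 0.35 at small spread and -0.74 and 0.94 at large spread, so the narrowing was not particular to the members. Divided by mean level in the 7 other strains, the 3 parts of low, middle and high level had medians of -0.94, -0.93 and -0.90, against 0.06, 0.08 and 0.07 outside. Among the 7 others the members were about as variable as genes elsewhere, with a median SD of 0.22 against 0.23 and an SD of at least 1 in 7.2% against 7.5%.

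AT3G11770 varied least, with a level of -0.08 in ExTQ019 against 1.20 to 1.30 in the other 7 strains (median 1.23) and a shift of -1.28. AAE13, a malonyl-CoA synthetase, was at -0.36 in ExTQ019 against 0.72 to 0.84 (median 0.77). APG12B, a ubiquitin-like protein of autophagy, was at -2.85 in ExTQ019 against -1.61 to -1.49 (median -1.55). Hrd1A, a ubiquitin ligase that marks misfolded proteins of the endoplasmic reticulum, was at -2.65 against -1.25 to -1.09 (median -1.20). ExTQ019 lay below all 7 others in each of the 10 members of smallest spread. The share was 75.2% over the measured members and 29.3% over the measured genes in the genome. Shifts of these 10 were -1.42 to -0.86, which at so small a spread leave no overlap. These 10 were named after their values were seen.

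**Figure D3:**
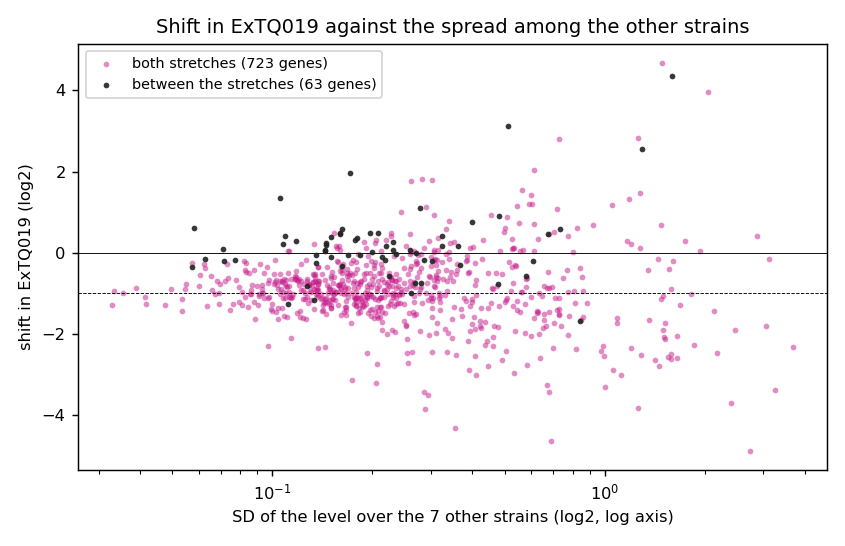
Shift in ExTQ019 (log2) against the SD of the level over the 7 other strains (log2, log axis), with 1 point per measured gene, for both stretches (723 genes) and the loci between them (63 genes); the dashed line marks -1. At small SD the genes of the stretches gather near -0.9 and those between them near 0, and both widen as the SD grows.

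The genes chosen by function can be set against all members, of which 88.7% of those measured were below 0 and 30.5% of those tested were called lower, so that similar shares in a short list say nothing particular to it. All 8 genes of ethylene and abscisic acid had a shift below 0, with a median of -0.98, and 3 were called lower. EBP, an ethylene response factor of the group that responds to low oxygen, was at 4.50 in ExTQ019 against 6.72 to 6.97 in the others (median 6.83), a shift of -2.30 and 0.203 of the other strains' level. EIN3, the central transcription factor of ethylene signalling, was at 2.02 in ExTQ019 against 2.60 to 3.02 (median 2.84), and its shift of -0.78 was below the size needed for a call. ERF7, a repressor of stress genes, was at 0.91 in ExTQ019 against 2.02 to 2.44 (median 2.12). ExTQ019 was below all others in 7 of the 8 genes, these 3 among them. The share was 75.2% over the measured members and 29.3% over the measured genes in the genome. NAC3, a NAC factor of jasmonate and abscisic acid responses, had a shift of -1.68 and was called. NCED3, the drought-induced enzyme of abscisic acid synthesis, was at -3.70 in ExTQ019 against -2.29 to -0.34, a shift of -2.35 that was -1.55 against the strains of the same slide alone, and it was not called. ABF4 had a shift of -0.77, and the repressors ERF4 and ZF2 were closest to the others at -0.27 and -0.23, ERF4 being at 0.01 against the strains of the same slide.

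Among auxin, cytokinin, brassinosteroid and light genes, 7 of 8 measured members were below 0, with a median of -1.02 and 2 called lower. DWF1, which reduces sterols on the way to brassinosteroids, was at 1.52 in ExTQ019 against 2.53 to 3.07 in the others (median 2.86). RR1, a response regulator that switches on cytokinin targets, was at -0.45 in ExTQ019 against 0.72 to 1.21 (median 0.94). Both were called lower, but RR1 had a shift of -0.64 when its probes were averaged. CYP90D1, a brassinosteroid enzyme, had a shift of -1.11 and PAP1 (IAA26), an auxin repressor that binds phytochrome, one of -0.54. AHP4, a phosphotransfer protein, had -0.93, but 0.01 against the strains of the same slide. SPA3, a partner of the light-signalling repressor COP1, was at -0.02 and HYH, a light-induced bZIP factor, at 0.31, both inside the range of the others. IAA31 was above background in only 3 of the 7 others and has no shift.

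The tandem gene families of the first stretch read unevenly. In the CYP72A cluster of cytochrome P450 genes the 8 members had a median of -0.82, or -0.42 in the deposited series values, and ran from -1.19 to 1.17. CYP72A13 was at -1.58 in ExTQ019 against -0.74 to 0.21 in the others (median -0.37), and CYP72A7 at -3.23 against -2.44 to -1.72 (median -2.15), and these 2 were called lower. The second probe of CYP72A13 gave -0.60 against -1.18, and the mean of its probes -0.90. CYP72A15, at the end of the cluster, was at 2.58 in ExTQ019 against 2.61 to 2.97, a shift of -0.17, and CYP72A8 was inside the range of the others with 0.34. CYP72A11 had -0.69. The dim members CYP72A9, CYP72A10 and CYP72A14 had -0.96, -1.19 and 1.17, and -0.25, -0.49 and 0.59 in the series values that the authors deposited. Genes of such clusters are alike in sequence, and whether a probe also reads a neighbour was not tested.

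The cluster of jacalin-related lectins and nitrile specifier proteins, which act in the breakdown of glucosinolates, had 8 measured members with a median of -1.96, of which 7 were below 0 and 3 were called lower. Its median was the lowest of the 8 lists, but in the deposited series values it was -1.08, the same as for the list of metabolism, transport and constitutive genes. NSP1 was at 0.42 in ExTQ019 against 1.75 to 2.66 in the others (median 2.41), and NSP4 at 0.99 against 2.20 to 3.16 (median 2.98). JR1, a lectin induced by jasmonate, was at 1.5 in ExTQ019 against 2.94 to 3.47 (median 3.01). ExTQ019 was below every other strain in 6 of the 8 measured members, these 3 among them, beside 75.2% of all measured members of the stretches. NSP4 had a shift of -0.89 when its probes were averaged. JAL31, MLP-300B and JAL33 had shifts of -2.50, -2.36 and -2.42 and were not called, and their values were -0.79, -0.15 and -1.36 in the deposited series values. MLP-300B was not well above background in ExTQ019 and was so in 6 of the others. JAL34 had -0.59, and PBP1, a lectin that binds a glucosidase of the endoplasmic reticulum, was inside the range of the others with 0.29. NSP3 was below background in all 8.

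**Figure D4:**
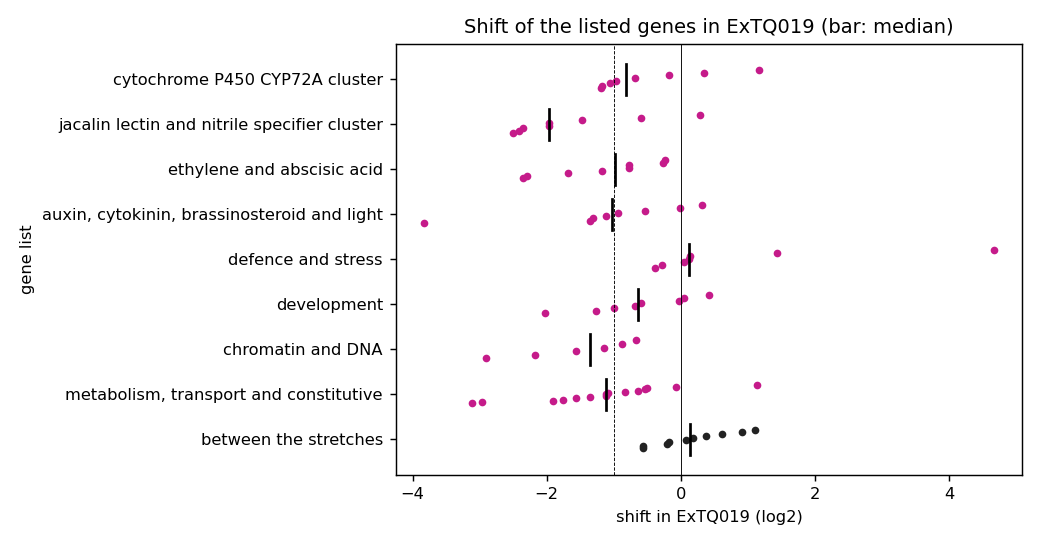
Shift in ExTQ019 (log2) of each measured gene of the 8 functional lists in the stretches (coloured points) and of the list between them (black points); bars mark the medians, the solid line 0 and the dashed line -1. List medians run from -1.96 (jacalin lectins and nitrile specifier proteins; -1.08 in the deposited series values) to 0.12 (defence and stress), and the list between the stretches lies at 0.13.

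The 6 genes of chromatin and DNA metabolism had a median of -1.35, or -0.72 with normexp and -0.65 in the deposited series values, and 4 were called lower. ExTQ019 was below all others in each, as it was for 75.2% of the measured members. JMJD5, a histone demethylase tied to the circadian clock, was at -2.65 in ExTQ019 against -0.30 to 0.74 in the others (median 0.28), and FIE, a subunit of the Polycomb complex that keeps genes silent, at -0.89 against -0.27 to 0.02 (median -0.19). TSK, a protein of replication forks, was at -5.16 against -3.70 to -3.40 (median -3.57). RAD54, a motor of homologous recombination, had a shift of -1.15, and TOP6B, a topoisomerase subunit needed for endoreduplication, -0.88. ATSPO11-1, the nuclease that starts meiotic recombination, stood well above background in the 7 other strains but not in ExTQ019, where it was at least 4.24-fold lower. The deposited series values gave -0.98 for TSK, -0.49 for RAD54 and -0.39 for ATSPO11-1.

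Of the 15 genes of metabolism, transport and constitutive functions, 14 were below 0, with a median of -1.11, 8 called lower and 1 called higher. DELTA-TIP, a water channel of the vacuole membrane, was at 3.50 in ExTQ019 against 6.36 to 6.87 in the others (median 6.65), a shift of -3.12 and 0.115 of the level in the others. BGAL1, a cell wall beta-galactosidase, was at 2.52 in ExTQ019 against 4.57 to 5.95 (median 5.52). ACT2, the actin often used as a reference transcript, was at 3.88 in ExTQ019 against 5.11 to 5.39 (median 5.26), a shift of -1.36 and 0.391 of the level in the others. ExTQ019 was below all others in 12 of the 15 genes, these 3 among them, beside 75.2% of the measured members. MTO3, an S-adenosylmethionine synthetase, had a shift of -1.91, PPC3, a phosphoenolpyruvate carboxylase, -1.76, FAD5, a plastid desaturase, -1.56, PME3, a pectin methylesterase, -1.11 and PGK1, a phosphoglycerate kinase, -1.08, and these 5 were also called. BCAT4, the aminotransferase that opens methionine chain elongation, had -1.12 without a call.

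TCTP and MT3, a metallothionein, had shifts of -0.64 and -0.54, and SULTR3;4, a sulfate transporter family member, had -0.83 (-0.16 against the strains of the same slide). ATCAD4, an enzyme of lignin synthesis, was inside the range of the others at -0.07. The exception was PMT5, a polyol and sugar transporter, at 4.18 in ExTQ019 against 2.57 to 3.36 in the others (median 3.08), a shift of 1.13 that was called higher.

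Development genes were mixed. Of 8, 6 were below 0, with a median of -0.65 and 2 called lower. TCP4, which limits leaf growth, was at -0.62 in ExTQ019 against 1.04 to 1.82 in the others (median 1.45), a shift of -2.03. SPL5, a promoter of flowering, was at -2.50 in ExTQ019 against -1.43 to -0.93 (median -1.19). ExTQ019 lay below every other strain in 4 of the 8, these 2 among them, beside 75.2% of the measured members. POK2, a kinesin of the division plane, had a shift of -0.99, RHD3, which shapes the endoplasmic reticulum, -0.69, and UCNL, a protein kinase, -0.60. The cell cycle inhibitor KRP6 was at -0.03, CUC1, a NAC factor of organ boundaries, at 0.05 and MYB5, a factor of trichomes and seed coat, at 0.42, all inside the range of the others.

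The 7 measured genes of defence and stress had a median shift of 0.12, with 2 below 0, and none was called by limma. ExTQ019 was above all other strains in 2 of the 7, beside 3.32% of the measured members and 29.0% of the measured genes in the genome. AT3G13610 (F6'H1), the enzyme that commits phenylpropanoids to scopoletin, was at -1.43 in ExTQ019 against -9.09 to -4.59 in the others (median -6.06), a shift of 4.67, or 2.74 in the deposited series values. HSP70 was at 2.74 in ExTQ019 against 0.86 to 2.39 (median 1.34), a shift of 1.43. PLDALPHA1, a phospholipase that makes phosphatidic acid under stress, was at 3.51 in ExTQ019 against 3.79 to 3.94 (median 3.82), a shift of -0.28 that was small though below all others. SYP121, a syntaxin of secretion at sites of fungal entry, MKS1, a substrate of the defence kinase MPK4, and HCHIB, a basic chitinase, were inside the range of the others, with 0.12, 0.13 and 0.05. PAP17, an acid phosphatase of phosphate starvation, had -0.39. NDR1 was above background in only 3 of the 7 others and has no shift.

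PR1 stood at 3.29 in ExTQ019 against -9.23 to -1.0 in the others, and BGL2 at 5.58 against -4.09 to 3.62. SPX3, a phosphate starvation marker, was at -7.05 in ExTQ019 against -5.82 to 2.61. The part of these states in the values of the defence and phosphate genes was not tested.

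In the list between the stretches, the 10 genes had a median of 0.13, with 1 called higher and none called lower. ASPG1, an aspartic protease of guard cells, was at 5.20 in ExTQ019 against 3.63 to 4.40 (median 4.13). MOS4, a part of a splicing-associated complex, was at 1.88 in ExTQ019 against 1.23 to 1.41 (median 1.31). HDA15, a histone deacetylase, was inside the range of the others with a shift of -0.17. The other 7 genes ran from -0.57 to 0.91.

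The lowest shifts of single members went far past the median. AT3G15630 was at -1.05 in ExTQ019 against 2.54 to 3.54 in the other strains (median 3.30), a shift of -4.32. Its neighbour UVR3, the photolyase that repairs 6-4 photoproducts, was at -5.43 in ExTQ019 against -2.02 to -1.14 (median -1.54), a shift of -3.86, or -2.51 in the deposited series values. AT3G15450 was at 4.06 in ExTQ019 against 6.95 to 7.81 (median 7.51), and its neighbour AT3G15440 was not well above background in ExTQ019, which makes it at least 13.6-fold lower. In these 4 genes, picked by their low shift, ExTQ019 did not overlap the other strains. It lay below all of them for 75.2% of the measured members and 29.3% of the measured genes in the genome. AT3G19390 had a shift of -3.42 without overlap as well, and AT3G13210 was not well above background in ExTQ019 and at least 3.21-fold lower. Both at-least folds depend on the processing. Shifts of AT3G15440 and AT3G13210 were -1.18 and -0.3 in the deposited series values, and -1.6 and -0.62 with normexp. AT3G11990 was not well above background in ExTQ019 and was so in 6 of the 7 others, so its shift rests on a reading at background. It and the other lowest members, WAG2, AT3G11680 and AT3G17060, had shifts of -4.87, -3.83, -3.69 and -3.38 but SDs of 2.74, 1.26, 2.41 and 3.26 over the 7 others, and were not called. In the deposited series values these 4 stood at -1.62, -1.57, -1.59 and -1.23, and AT3G17060 had -1.91 at its smallest when a strain was left out.

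Against the general lowering, 10 members had shifts of 1.48 or more. F6'H1 led them. ABCC3, an ABC transporter of the vacuole, was at 2.78 in ExTQ019 against 0.25 to 1.87 in the others (median 0.77), and its second probe gave 2.0 against 2.04. ABCC7, in the same cluster, was at -1.17 in ExTQ019 against -4.27 to -2.47 (median -3.95). CNGC19, a calcium channel of wound and defence signalling, was at -2.41 in ExTQ019 against -4.73 to -3.96 (median -4.19). ExTQ019 was above all others in these 3, which were picked by their high shift, and CNGC19 was called. The share above all others was 3.32% over the measured members and 29.0% over the measured genes in the genome. Also called higher were AT3G18950, at -1.84 against -4.18 to -3.36, and AT3G12830 (SAUR72), an auxin-induced small protein, at 0.56 against -1.61 to -0.88. AT3G13950 had a shift of 3.97, at 1.05 in ExTQ019 against -4.42 to 0.81. AT3G12910, AT3G13500 and the cell wall invertase ATBFRUCT1 had 2.82, 1.54 and 1.48, which became 1.46, 0.36 and 0.97 with normexp background correction. ATBFRUCT1 was inside the range of the others.

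**Figure D5:**
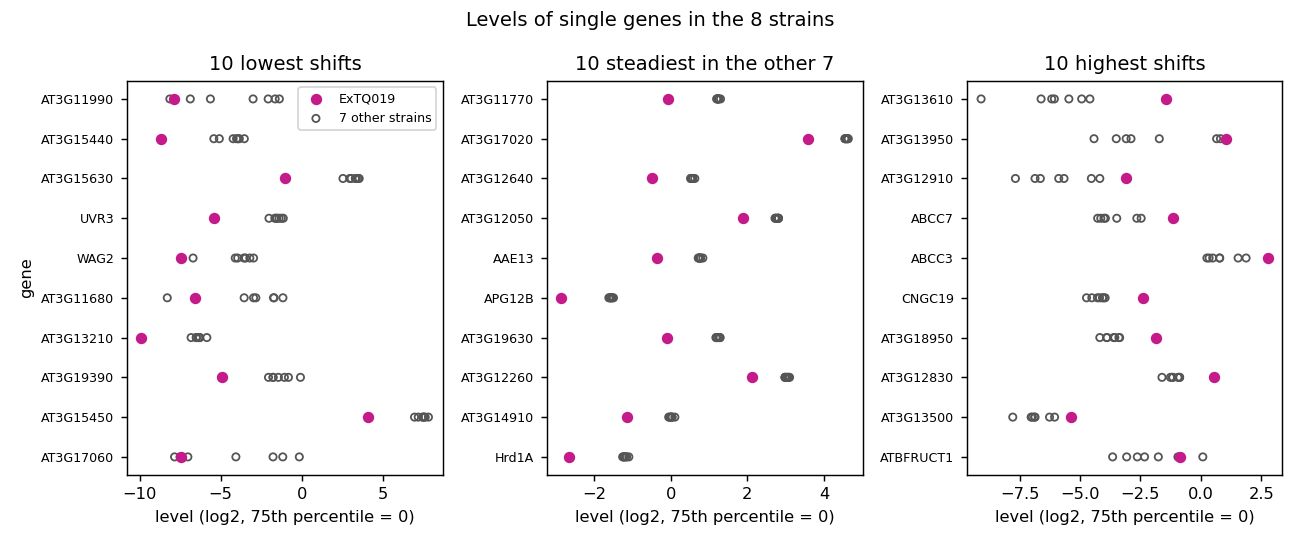
Level (log2, 75th percentile of the array at 0) in ExTQ019 (filled) and the 7 other strains (open) for the 10 lowest shifts, the 10 members that vary least among the other 7, and the 10 highest shifts. In the middle panel ExTQ019 stands apart by a similar distance in each gene, from -1.42 to -0.86, while in the outer panels the distance and the spread differ from gene to gene.

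Among the 7 other strains the members had medians near 0, from -0.02 in ExTQ015 to 0.02 in ExTQ003 and ExTQ016, and the share below 0 ran from 46.7% in ExTQ016 to 55.5% in ExTQ015. For single genes each of these strains was tested against the other 6 without ExTQ019, by limma over 22179 genes, of which 811 were members. No member was called in ExTQ013 (0.0% of all genes), ExTQ015 (0.0586%), ExTQ003 (0.0%), ExTQ005 (0.00451%) or ExTQ018 (0.0%). At an unadjusted p under 0.05 these 5 strains had 13, 13, 27, 10 and 14 members of 811, against 1.79%, 1.9%, 3.11%, 1.01% and 2.06% of all genes. With normexp background correction 188 members were called in ExTQ003, where 24.1% of all genes were called (5336 of 22179), and 1 was called in ExTQ018 when ExTQ016 was left out, with 20 genes in the genome.

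In ExTQ002, 2 members were called lower (0.247%, against 0.401% of all genes) and 143 had an unadjusted p under 0.05 (17.6%, against 16.4%). WAG2, a kinase that directs polar auxin transport, was at -6.70 in ExTQ002 and averaged -3.54 ± 0.43 in the 6 others (SD, n = 6; limma difference -3.16 ± 0.42 SE, adjusted p = 0.0491). AT3G18860 was at -0.72 in ExTQ002 and averaged 0.63 ± 0.14 in the 6 others (SD, n = 6; limma difference -1.35 ± 0.17 SE, adjusted p = 0.0458). WAG2 was thus low both in ExTQ019, at -7.43, and in ExTQ002. No member was called in ExTQ002 when ExTQ015, ExTQ003, ExTQ005, ExTQ016 or ExTQ018 was left out, and 66 were called when ExTQ013 was, with 1974 of 22137 genes called in the genome (8.92%).

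In ExTQ016, 13 members were called higher (1.6%, against 1.41% of all genes) and none lower (against 0.0451%), with 10 in the first stretch and 3 in the second. AT3G15670 was at 0.48 in ExTQ016 and averaged -6.83 ± 0.86 in the 6 others (SD, n = 6; limma difference 7.31 ± 0.83 SE, adjusted p = 0.00939). GATA29, a GATA-type transcription factor, was not well above background in the 6 others and was at least 29.6-fold higher in ExTQ016. AT3G15960, AT3G16895 and the carboxypeptidase-like gene scpl17, also not well above background in the 6 others, were at least 26.0-, 19.2- and 18.7-fold higher. These genes, and AT3G20030, AT3G19920, AT3G13370, AT3G13010 and AT3G12775 among the 13, entered the test only through ExTQ016. Their spread over the 6 others is that of readings at background. At an unadjusted p under 0.05 the strain had 67 members (8.26%, against 7.34%). MYB5 was at -3.23 in ExTQ016 and averaged -5.15 ± 0.29 in the others (SD, n = 6; limma difference 1.92 ± 0.30 SE, adjusted p = 0.0366).

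All 4 seed markers were far higher in ExTQ016, with a log2 summed level of 5.91, the highest of any strain, and SESA3, a seed storage albumin, at 5.13 in ExTQ016 against -9.78 to -7.97 in the 6 others besides ExTQ019. The part of seed RNA in these calls was not tested. The count in ExTQ016 was 0 with normexp background correction and 0 over genes above background on all 8 arrays, and between 9 and 17 with 1 strain left out.

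The members that varied most among the 7 others included genes of pollen and seed. MS2, an enzyme of the pollen wall, was at -4.95 in ExTQ019 and from -9.25 in ExTQ002 to -0.36 in ExTQ003 (median -3.12). ABCG26, which exports pollen wall precursors, was at -6.52 in ExTQ019 and from -9.00 in ExTQ002 to -1.79 in ExTQ003 (median -4.60). DELTA-VPE, a protease of the seed coat, was at -4.68 in ExTQ019 and from -7.17 in ExTQ002 to 1.27 in ExTQ016 (median -4.50). In all 3, ExTQ019 lay inside the range of the others. MS2 and ABCG26 were lowest in ExTQ002, as was the flower marker AP3, at -8.08 there against -2.48 to 0.80 in the 6 others besides ExTQ019. MS2, ABCG26 and DELTA-VPE were named after their values were seen, and the part of flower tissue in their values was not tested. Other members of large spread went the other way, with ExTQ002 and ExTQ013 the highest of the 7. They were HCHIB (3.67 and 3.64), AT3G16670 (2.32 and 1.89), AT3G16660 (1.39 and 1.05) and AT3G13950 (0.81 and 0.65).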

How the data were processed

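RNA of 8 strains was hybridised to 1 Agilent array each, from 200 ng of total RNA labelled with Cy3, per the labels' protocols, while the molecule label reads genomic DNA. Per the file headers, the authors read each spot's intensity with Agilent Feature Extraction 11.0.1.1, which subtracted background and did not scale arrays to each other. The series values the authors deposited look like log2 and served as an alternative; how they were made is not given here.

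Spots marked as outliers were set aside, the spots of a probe were averaged, and log2 processed intensity was set relative to the 75th percentile of each array. Of 37478 probes, 34 were left out for such marks, and 26214 were named by a locus. The brightest probe stood for each of 25643 loci. Symbols came from the RefSeq table of TAIR10.1, which held 25427 loci, 895 of the members among them. No reference coordinates are printed, because the sources used here name no build for the array.

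The difference of ExTQ019 from the median of the 7 others was centred by taking off its genome-wide median of -0.033. For the other strains the 6 remaining strains without ExTQ019 were used. Fits used limma 3.58.1 in R 4.3.3, with Benjamini-Hochberg adjustment over all tested genes, and Python 3.11.15. The spread comes from the strains on the other side, which assumes a lone strain to be as variable, and p-values measure only the spread between these samples. An at-least fold compares the brighter side with the lowest level well above background on the dim array, and a call beside it rests on the scaled difference. Normexp used the median spot intensity, since the mean was not among the columns used. The number of arrays limits the precision.

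The members, the lists and the tests were chosen with earlier results of these data known. Named genes are all loci of the lists, 5 measured loci on each side of each limit, the 10 lowest and the 10 highest shifts, up to 5 called members of each other strain, and the marker genes.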

Additional observations from a re-analysis of the deposited data

Results flagged for a closer look

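The values scored were those of 126 measured genes and the 3 region medians, 129 in all. The genes were those of the lists, of the limits and of the lowest and highest shifts. Marker genes and members called in another strain were not scored unless they were also in these sets. For each value, the gap between the highest or lowest strain and its nearest neighbour was divided by the range over the 8 strains. A ratio above Dixon's critical value for 8 samples marked 49 values, with ExTQ019 low in 40 and high in 6. In the genome ExTQ019 was below all 7 others for 29.3% of the measured genes and above them for 29.0%. The stretches were bounded, and many of the genes picked, by the values of ExTQ019, so for ExTQ019 the ratios are given as a description and test nothing. For the other strains, chance alone marks about 1 group in 20. The 2 stretch medians had ratios of 0.94 (first) and 0.87 (second), with ExTQ019 low, and the median between them had 0.60, with ExTQ019 high.

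The ratio was highest in EBP, at 0.90, DELTA-TIP, at 0.85, TSK, at 0.83, and ACT2, at 0.82. It was 0.79 in UVR3, 0.78 in AT3G15630 and 0.77 in AT3G15450. Both AT3G13210 and AT3G17780 had 0.76, AT3G17770 had 0.75, MTO3 had 0.74 and JR1 had 0.73. Values of 0.72 were found in ERF7 and AT3G20790, 0.71 in RR1, 0.70 in RAD54, 0.69 in FLA18 and JMJD5, and 0.68 in TCP4, SPL5 and FIE. RHD3 and DWF1 had 0.65, AT3G11690 and PLDALPHA1 had 0.64, and AT3G15440 and TCTP had 0.63. Nearer the threshold, ATSPO11-1 and BGAL1 had 0.60, NSP1 and AT3G19390 had 0.59, CYP72A11 and EIN3 had 0.58, and PGK1 had 0.57. NSP4 had 0.56, PPC3 0.55, AT3G11720 0.54 and ATKRS-1, a lysyl-tRNA synthetase, 0.53. ExTQ019 was the low strain in all of these.

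ExTQ019 was the high strain in MOS4, between the stretches, with a ratio of 0.73, and in AT3G20870, just outside the second stretch, with 0.68. Inside the stretches it was high in CNGC19 (0.67), AT3G12830 (0.66) and AT3G18950 (0.65). Other strains lay apart in 3 of the genes scored. CUC1 was low in ExTQ002, at -6.02, with a ratio of 0.53, and NEK5, a kinase gene just outside the second stretch, was low in ExTQ002, at -1.5, with 0.74. MYB5 was high in ExTQ016, at -3.23, with a ratio of 0.60.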

How the results depend on the processing

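The median shift of both stretches in ExTQ019 was -0.93, and it stayed between -0.93 and -0.91 with 1 strain left out (-0.93 to -0.89 in the first stretch, -0.95 to -0.91 in the second, 0.05 to 0.09 between them). It was -0.81 with normexp (-0.81 in the first stretch and -0.84 in the second), -0.80 in the deposited series values (-0.80 and -0.79), -0.75 without a filter on dim probes (-0.75 and -0.76), and -0.90 with quantile normalization (-0.90 in the first), against the same slide (-0.88 in the first) and in the third of members with the highest level. Centred on genes outside the lowered stretches, a choice added after the data were seen, it was -1.0 (-0.99 and -1.02). Between the stretches these settings gave 0.05 (quantile), 0 (deposited values and outside centring), 0.11 (no filter) and 0.02 (same slide). In other strains the members' median became 0 in ExTQ015 and -0.01 in ExTQ003 with normexp, -0.01 in ExTQ015 with the deposited values, 0.02 in ExTQ013 without the filter, and 0.01 in ExTQ016 and -0.02 in ExTQ018 against the same slide.

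Members called lower in ExTQ019 were 249 and 228 to 291 with 1 strain left out, or 147 with normexp. Those called higher were 7 and 4 to 10, or 1 with normexp and 11 with the slide as a block. In ExTQ002 the 2 calls became 0 with normexp, centring on the median, no filter or ExTQ019 kept among the others, 1 with quantile normalization, deposited values or outside centring, 6 with eBayes set to trend and robust, 10 over genes that every array detected, and 0 to 66 with 1 strain left out (the 66 beside 8.92% of all genes). In ExTQ016 the 13 calls became 0 with normexp or over genes that every array detected, 8 with the slide as a block or with trended, robust eBayes, and 9 to 17 with 1 strain left out. ExTQ003 had 188 calls with normexp, which called 24.1% of all genes in that strain, and ExTQ018 had 0 to 1 with 1 strain left out. The causes were not tested.

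Of 2004 shifts recomputed for the 126 genes scored above, 77 moved by more than the spread between the other strains. Most moves were in the deposited series values (26 of 126) and with normexp (20 of 126). With each strain left out in turn, all 126 stayed within that spread. No paired analysis was possible because each strain is a single sample of the same group.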
